A study of Homo sapiens with 3 samples.

Results

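The genes described here are PHGDH, PSAT1, PSPH, SHMT2 and MTHFD2, which make serine and pass its carbon on, and ASNS, CHAC1, TRIB3, DDIT3 and SESN2, which are widely used as readouts of the transcription factor ATF4. These 10 genes were taken by name from the 36601 genes of the matrix, and all 10 were found. With them, 142 of 215590 deposited accessibility peaks were taken, those within 50 kb of a member's interval in the feature list. Values are over 8913 cells, barcodes that reached 1000 transcript counts (unique molecular identifiers, UMIs) and 1000 peak counts and whose mitochondrial genes held no more than 20% of UMIs.

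Cells make serine from the glycolytic intermediate 3-phosphoglycerate in steps catalysed by PHGDH, PSAT1 and PSPH. SHMT2 splits serine to glycine in mitochondria and loads its carbon onto folate, and MTHFD2 carries that folate carbon forward for nucleotide synthesis. When amino acids run short or unfolded protein builds up, kinases of the integrated stress response phosphorylate eIF2, translation of ATF4 increases, and ATF4 with C/EBP partners activates amino acid synthesis, transport and tRNA-charging genes. Several serine pathway genes are themselves known ATF4 targets, so both sets of genes are often seen to move together in tumour cells.

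The study asked how cells escape inhibition of TEAD, the DNA-binding partner of YAP and TAZ, and measured RNA and open chromatin in the same cells with the 10x Multiome assay. NCI-H226 is an established mesothelioma line, described in the labels as lacking NF2, and CL3 is 1 clone of it made resistant to the TEAD inhibitor GNE7883 by culture in 0.25 rising to 3 µM. Parental and CL3 cells, each given GNE7883 or DMSO, were hashtagged and run as 1 pool. The sources used here give neither the dose nor the length of that exposure. The matrix holds no hashtag counts, so no cell was assigned to a line or treatment, there is 1 sample, and no test between conditions was possible. Of 13 mesothelial marker genes, 12 had at least 100 UMIs and together they made up 9892 CPM (counts per 1000000 UMIs of the cells), most of it from genes that other epithelial cells express too, namely KRT18 at 4153, KRT8 at 2517 and KRT19 at 1742. The 12 immune markers made up 9.77 CPM and 3 of them were at 0, 7 endothelial markers made up 58.1 CPM, and 6 fibroblast markers made up 118.1 CPM, of which COL1A1 gave 107.6.

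The cells held a median of 1524 UMIs (1000 to 13064) and 4034 peak counts (1001 to 59374), with a median mitochondrial share of 13.9%. At this depth the members were sparse. They gave 3789 UMIs in all, and 2837 cells (31.8%) held at least 1 of them. Intervals below are 95% intervals for counting error only: exact Poisson for a CPM, exact conditional binomial for a ratio and Clopper-Pearson for a share of cells. They cover neither differences between cultures nor the number of genes compared. A ratio is said to be called when it is at least 1.5-fold and its interval leaves out 1, for genes with at least 100 UMIs over the cells compared.

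Of the ATF4 readouts, ASNS and CHAC1 are the ones whose promoters carry the core of the C/EBP-ATF response element, the composite site that ATF4 dimers bind, within the window searched. RefSeq promoter entries (GRCh38.p14) exist in the table used for 8 members, and PSPH and SHMT2 have none there. The 250 bases before each start are printed for these genes and for PHGDH and PSAT1, the members whose RNA varied most between groups of cells. Capitals mark a match to TGATGNAA, on the strand shown for ASNS and on the other strand for CHAC1.
ASNS, chr7:97872409-97872658, minus strand: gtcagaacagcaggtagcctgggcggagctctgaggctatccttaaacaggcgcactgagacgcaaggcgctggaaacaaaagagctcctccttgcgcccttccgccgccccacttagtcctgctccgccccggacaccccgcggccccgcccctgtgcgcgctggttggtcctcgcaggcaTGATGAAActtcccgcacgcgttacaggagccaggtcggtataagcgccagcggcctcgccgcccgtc
CHAC1, chr15:40953221-40953470, plus strand: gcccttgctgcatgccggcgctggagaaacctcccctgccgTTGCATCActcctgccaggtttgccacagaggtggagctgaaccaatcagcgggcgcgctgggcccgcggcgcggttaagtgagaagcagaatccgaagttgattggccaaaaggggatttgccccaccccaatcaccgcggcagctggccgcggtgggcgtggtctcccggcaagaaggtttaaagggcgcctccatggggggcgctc
PHGDH, chr1:119711684-119711933, plus strand: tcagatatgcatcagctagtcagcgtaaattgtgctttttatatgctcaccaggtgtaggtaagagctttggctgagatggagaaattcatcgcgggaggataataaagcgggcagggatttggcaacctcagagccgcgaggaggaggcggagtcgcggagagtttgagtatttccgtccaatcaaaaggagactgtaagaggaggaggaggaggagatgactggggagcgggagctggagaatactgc
PSAT1, chr9:78296875-78297124, plus strand: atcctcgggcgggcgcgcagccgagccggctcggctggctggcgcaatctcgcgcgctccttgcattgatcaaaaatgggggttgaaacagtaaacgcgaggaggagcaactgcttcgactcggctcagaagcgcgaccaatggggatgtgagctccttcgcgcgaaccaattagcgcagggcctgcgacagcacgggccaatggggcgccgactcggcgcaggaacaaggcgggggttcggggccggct

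The match lay at positions -68 to -61 from the ASNS start, for 1 of the 2 ASNS entries, and at -209 to -202 from the CHAC1 start. TGATGNAA was found on either strand in 3.14% of 35116 promoter windows of this length. The other motifs searched on both strands were TGACGTCA (the cAMP response element, in 1.65% of windows), CACGTG (the E-box, 6.34%), TGANTCA (the AP-1 site, 6.57%) and GGAATG (the TEAD site, 11.9%). Of these, a member's window held only TGANTCA, in DDIT3 at -241 to -235 from 1 of its 2 listed starts and -238 to -232 from the other. A palindromic site such as this counts on both strands. The windows of PHGDH, PSAT1, MTHFD2, TRIB3 and SESN2 held none of the 5 motifs, which says only that these letters are not in these windows.

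Over all cells, the serine genes were found at 32.5 CPM (29.8 to 35.4) for PHGDH, which commits 3-phosphoglycerate to serine, 14.2 CPM for the aminotransferase PSAT1 and 16.8 CPM for the phosphatase PSPH. SHMT2 was at 54.1 CPM (50.6 to 57.7) and MTHFD2 at 34.0 CPM (31.3 to 36.9). DDIT3, which encodes the stress factor CHOP, was at 38.4 CPM (35.5 to 41.5), SESN2, a leucine sensor that restrains mTORC1, at 23.9 CPM and TRIB3, a pseudokinase that binds AKT and ATF4, at 12.8 CPM. ASNS, which makes asparagine, gave 9 UMIs (0.543 CPM, 0.248 to 1.03), and CHAC1, which degrades glutathione, gave 20 (1.21 CPM, 0.736 to 1.86). CPM values are not per transcript length, so the order of genes is not an order of abundance. The 8 members with at least 100 UMIs could be compared between groups, and ASNS and CHAC1 could not. A UMI of SHMT2 was seen in 9.36% of cells (8.76 to 9.98), of PHGDH in 5.72% (5.25 to 6.22) and of ASNS in 0.101% (0.0462 to 0.192).

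Barcodes with few UMIs carried most members at like levels. In barcodes with 1 to 300 UMIs, taken as free RNA, PHGDH stood at 32.1 CPM (27.7 to 36.9), PSAT1 at 14.7, PSPH at 16.9, MTHFD2 at 37.2 and TRIB3 at 13.3. DDIT3 was higher there than in cells, at 58.4 CPM (52.5 to 64.8), and SHMT2 was at 65.1 CPM (58.9 to 71.9). SESN2 was lower, at 14.1 CPM (11.3 to 17.4). ASNS had 0 of 6109106 free UMIs, an upper bound of 0.604 CPM, and CHAC1 had 2. UMIs of every member but ASNS were thus found in these barcodes. They were taken by UMIs alone, with no limit on peak counts, and were not shown to be empty. In the narrower range of 5 to 100 UMIs, PHGDH gave 8 UMIs (56.4 CPM) and CHAC1 gave 0. The part of free RNA in the comparisons that follow was not tested.

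The low counts of ASNS and CHAC1 did not go with closed start sites. The ASNS start peak held 1117 counts, more than the 1034 in the strongest peak over the PHGDH interval, where PHGDH gave 539 UMIs. That PHGDH peak lies at the far end of its long interval and had a count in 512 cells. The peak over the RefSeq start of PHGDH had a count in 305 cells, so 1034 overstates that start site. For TRIB3 no peak covered a RefSeq start. Among 6921 genes with at least as many start-peak counts as ASNS, the median gene gave 359 UMIs, and 9.42% gave 9 or fewer. CHAC1 had 775 start-peak counts, and of 10163 genes with as many, 15.0% had as few UMIs. For the other 8 members this share lay between 39.4% (PSAT1) and 73.5% (SHMT2). DDIT3 had the most open start of the members, with 2917 counts and 637 UMIs. As shown above, ASNS and CHAC1 are also the members with TGATGNAA in the window before the start.

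**Figure D1:**
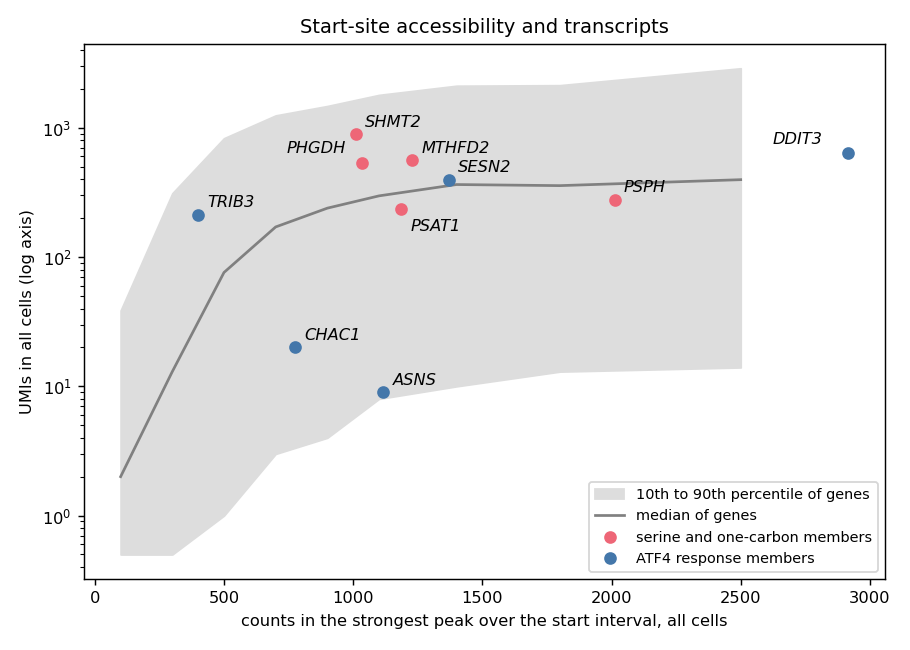
Counts in the strongest peak over each gene's start interval (x axis) against UMIs (y axis, log scale), both over all 8913 cells; points are the 10 members, the line and band are the median and the 10th to 90th percentile of all genes with a start peak, in bins of start-peak counts (values of 0 drawn at the bottom). ASNS (9 UMIs) sits at the lower edge of the band at 1117 counts, and the other members apart from CHAC1 sit near or above the median. The PHGDH point uses a peak at the far end of its long interval, not the one over the RefSeq start.

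Cells were then grouped by chromatin alone, with the 142 member peaks left out, so that neither the members' RNA nor their peaks drew the groups. The 5 clusters of at least 100 cells held 2560, 2397, 1752, 1434 and 676 cells, and 94 cells in a smaller cluster were not compared. Their leading genes by RNA were IL1RAPL1, HMGA2 and SAMD3 in cluster 1, CYP17A1, CHI3L1 and SFTPD in cluster 2, CLSTN2, CYP24A1 and DISC1FP1 in cluster 3, ADGRL3, PPP2R2B and ITGB8 in cluster 4, and INHBA, AC004704.1 and IGFBP5 in cluster 5. No cluster was given a cell type, line or treatment. Median UMIs per cell were 1531, 1452, 1687, 1452 and 1624.5 in clusters 1 to 5, and median mitochondrial shares lay between 13.5% and 14.3%.

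PHGDH was the member that varied most. It stood at 20.8 CPM (16.8 to 25.3) in cluster 1, 27.8 CPM (23.0 to 33.4) in cluster 2, 30.0 CPM (24.6 to 36.3) in cluster 3, 71.1 CPM (61.1 to 82.2) in cluster 4 and 23.7 CPM (16.4 to 33.1) in cluster 5. The interval of cluster 4 lay above all the others, and those of the other 4 clusters overlapped. PHGDH was 2.79-fold (2.32 to 3.35) higher in cluster 4 than in all other cells, where it stood at 25.4 CPM, and 1.79-fold (1.44 to 2.25) lower in cluster 1. Cells of cluster 4 with a PHGDH UMI made up 11.4%, against 3.67% in cluster 1. In order of level, cluster 4 exceeded the next, cluster 3, by 2.37-fold (1.86 to 3.04), and no interval between the remaining neighbours left out 1. Cluster 4 exceeded cluster 1 by 3.43-fold (2.67 to 4.43). The call in cluster 1 rests on a reference that took in cluster 4, with its 182 PHGDH UMIs. A comparison of cluster 1 with clusters 2, 3 and 5 alone was not made.

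The difference in cluster 4 was not shared by the rest of the serine pathway. PSAT1, the next enzyme, was at 14.1 CPM in cluster 4 and 14.2 CPM in other cells, a ratio of 0.991 (0.675 to 1.42). PSPH was at 14.5 and 17.2 CPM (ratio 0.841, 0.578 to 1.19), SHMT2 at 55.9 and 53.7 CPM (1.04, 0.863 to 1.24) and MTHFD2 at 28.5 and 35.0 CPM (0.815, 0.628 to 1.04). The ATF4 readouts gave ratios of 1.00 for TRIB3, 0.949 for DDIT3 and 1.07 for SESN2, with intervals that held 1. Among 11 other one-carbon and glycine genes, 12 tRNA synthetases and 15 other ATF4 response genes with enough UMIs, 0 were called in cluster 4. The share over all genes there was 7.0%. Of 7 amino acid transporter genes, SLC38A1, a glutamine carrier, was 1.53-fold lower there.

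Whether the call of PHGDH in cluster 4 holds in cells with at most 10% mitochondrial UMIs could not be told. PHGDH gave 76 UMIs in those cells, too few for a call at any ratio. With the clusters kept and only those 1592 cells counted, its log2 ratio was 0.66 (-0.24 to 1.47), against 1.48 (1.22 to 1.74) over all cells, and with those cells clustered anew it was 0.11 (-0.58 to 0.80). In cluster 1 the log2 ratio with the clusters kept was -0.19 (-0.97 to 0.55), against -0.84 over all cells. Clustered anew, those cells formed only 2 clusters. The values matched to clusters 4 and 1, 0.11 (-0.58 to 0.80) and -0.11 (-0.80 to 0.58), are thus 1 ratio inverted. Their overlaps with clusters 4 and 1 (Jaccard index, shared cells over cells in either) were 0.219 and 0.347. They say little of those clusters.

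Of 40 ratios of the 8 members in 5 clusters, 5 were called (12.5%), beside 6.56% of 51530 ratios over all genes. Besides both PHGDH values, these were PSAT1 in clusters 2 and 5 and SESN2 in cluster 2. PSAT1 stood at 15.7 CPM (12.3 to 19.7) in cluster 1, 9.36 (6.66 to 12.8) in cluster 2, 13.9 in cluster 3, 14.1 in cluster 4 and 24.4 (17.0 to 33.9) in cluster 5. It was 1.85-fold (1.25 to 2.66) higher in cluster 5 than in other cells and 1.69-fold (1.19 to 2.44) lower in cluster 2. Cluster 5 held 35 PSAT1 UMIs. In its cells with at most 10% mitochondrial UMIs the log2 ratio was -1.01 (-4.09 to 0.92). That interval also holds the 0.89 over all cells, so whether the higher level holds in such cells could not be told. All cells with at most 10% mitochondrial UMIs held 54 PSAT1 UMIs, too few for a call. The call in cluster 2 was lost in 4 of 14 alternatives; with at least 500 UMIs and peak counts the log2 ratio was -0.36 (-0.73 to -0.0029), against -0.75 over all cells, and with at least 2000 it was -0.75 (-1.59 to 0.0064).

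SESN2 was lowest in cluster 2, at 16.1 CPM (12.5 to 20.4), against 29.2 in cluster 1, 22.9 in cluster 3, 25.4 in cluster 4 and 30.7 in cluster 5. It was 1.65-fold (1.27 to 2.18) lower in cluster 2 than in other cells. That call was lost in 4 of 14 alternatives, where the log2 ratio of -0.72 became -0.30 with at least 2000 UMIs and peak counts, -0.40 in cells with at most 10% mitochondrial UMIs clustered anew, -0.23 in clusters drawn from expression and -0.53 without the cells of highest doublet score. SHMT2 and MTHFD2 were lowest in the same cluster, 1.35-fold (1.15 to 1.61) and 1.31-fold (1.06 to 1.62) lower than elsewhere, with intervals that left out 1 but short of 1.5-fold. Cluster 2 also had the lowest summed level of cell cycle genes, 756 CPM of S-phase genes and 2624 CPM of G2/M genes, where the other clusters ranged from 967 to 1148 and from 3505 to 4069 CPM. The part of the cell cycle in the SESN2, SHMT2 and MTHFD2 values of cluster 2 was not tested.

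PSPH stood highest in cluster 1, at 21.4 CPM (17.4 to 26.0), and lowest in cluster 5, at 11.9 CPM (6.90 to 19.0), 1.80-fold (1.07 to 3.22) apart, and no neighbours in its order had an interval that left out 1. TRIB3 ranged from 11.8 CPM in cluster 2 to 15.0 CPM in cluster 3, and DDIT3 from 34.5 CPM in cluster 3 to 44.6 CPM in cluster 5. The highest over the lowest was 1.28 (0.848 to 1.92) for TRIB3 and 1.29 (0.940 to 1.76) for DDIT3, and both of these intervals held 1. None of the 8 members was called in cluster 3, beside 5.66% of all genes.

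**Figure D2:**
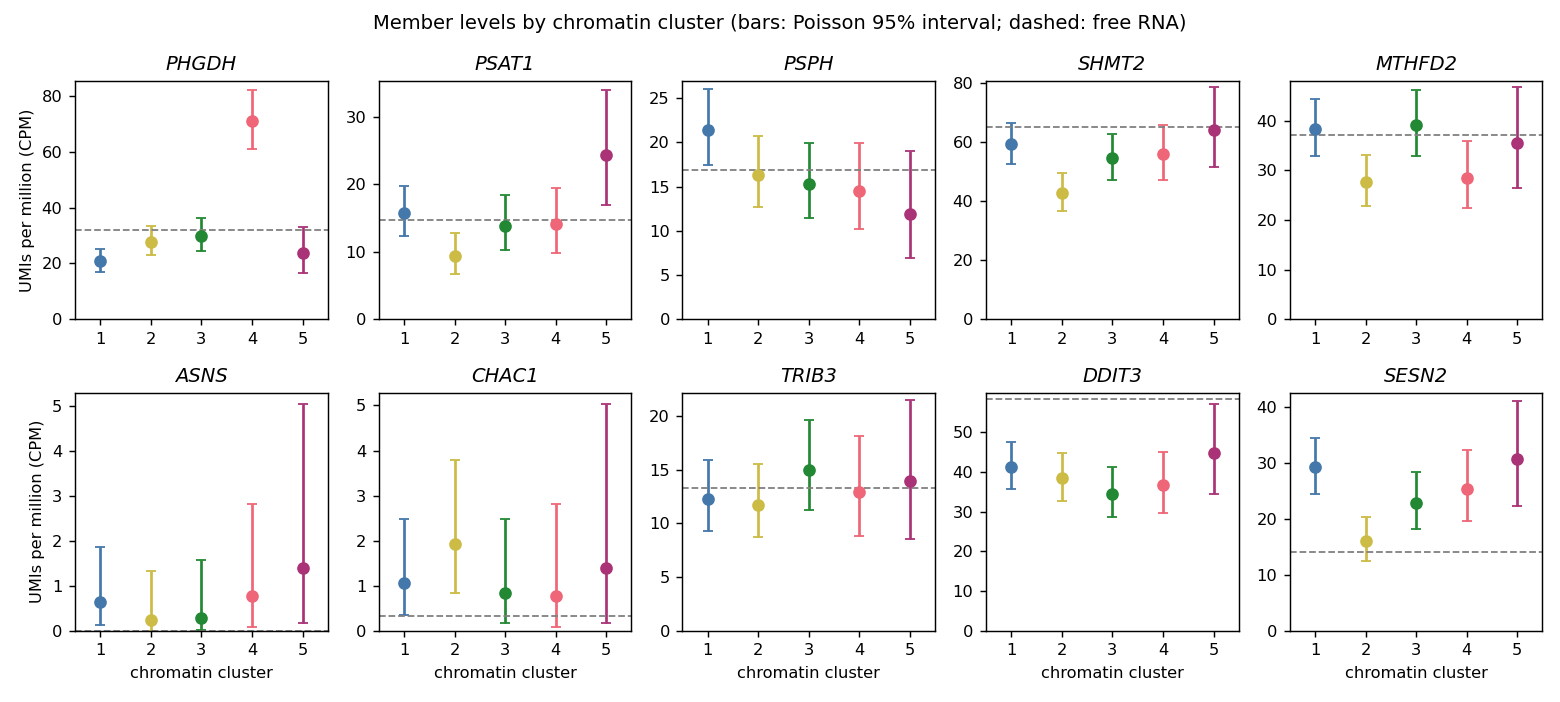
Level of each member (y axes, CPM, each from 0) in chromatin clusters 1 to 5 (x axes); points are summed UMIs of a cluster's cells with Poisson 95% intervals, and the dashed line is the level in free RNA. PHGDH in cluster 4 (71.1 CPM) stands clear of the other clusters, whereas TRIB3 and DDIT3 overlap in all 5.

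Other genes of these pathways were called in clusters where few members were. In cluster 5, where PSAT1 was called, ATF4 itself was 1.57-fold (1.32 to 1.86) higher at 110.8 CPM, the glycyl-tRNA synthetase GARS was 1.52-fold higher, and the endoplasmic reticulum genes CRELD2 and SDF2L1 were 2.09-fold and 1.95-fold higher. The stress sensor ATF6 was 1.52-fold lower there. In cluster 1, the stress factor ATF3, the phosphatase subunit PPP1R15A, which reverses eIF2 phosphorylation, and VEGFA were higher, by 1.73-fold, 1.502-fold and 1.53-fold. In cluster 2, KLHL24 and TXNIP were 1.65-fold and 1.51-fold higher, and the leucine carrier SLC7A5, CEBPG, a partner of ATF4, SDF2L1 and EIF2AK4, the amino acid sensing eIF2 kinase GCN2, were lower by 1.75-fold, 1.75-fold, 1.64-fold and 1.53-fold. SLC7A5 was 1.55-fold higher in cluster 3, and TXNIP and MTHFD2L were lower there by 1.62-fold and 1.54-fold. Over 6 lists with 76 genes that had enough UMIs, 3, 6, 3, 1 and 6 genes were called in clusters 1 to 5, beside 6.69%, 6.91%, 5.66%, 7.0% and 6.56% of all genes. In cluster 4 that was 1.32% of the pathway genes, and in clusters 2 and 5 it was 7.89%.

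Genes with a pattern like that of PHGDH over the 5 clusters were ranked by Pearson's r of log2 CPM among 1601 genes with at least 100 CPM. The 5 closest were TMEM258 (0.990), C12orf57 (0.990), SPTAN1 (0.982), TNS3 (0.975) and TCF7L2 (0.970). With 5 points that share cells and depth, r describes shape and not size. TNS3, a focal adhesion protein, was 2.46-fold higher in cluster 4 and TCF7L2, a Wnt pathway factor, 1.85-fold, whereas TMEM258 differed by 1.20-fold.

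The RNA difference of PHGDH was not matched by its start site. The peak over the RefSeq start, chr1:119711456-119712289, stood at 12.5, 10.99, 11.8, 13.0 and 15.6 CPM, here of peak counts, in clusters 1 to 5. That was 1.07 (0.776 to 1.44) times the level of other cells in cluster 4 and 1.02 (0.779 to 1.32) in cluster 1. The interval that the feature list gives for PHGDH runs from 119648411 to 119711934, far upstream of the RefSeq start, and a peak at its other end, chr1:119647815-119648721, was at 0.900 in cluster 4.

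A neighbouring peak did differ in both clusters where PHGDH RNA was called, and in the same directions. It lies at chr1:119712499-119713288, 564 bases past the start and inside the RefSeq gene (119711934 to 119744215); exon and intron boundaries were not used here. It stood at 5.20 CPM in cluster 1, 9.87 in cluster 2, 7.81 in cluster 3, 13.9 in cluster 4 and 11.4 in cluster 5. It was 2.02-fold (1.39 to 3.00) lower in cluster 1 and 1.71-fold (1.24 to 2.33) higher in cluster 4. The reference for cluster 1 took in cluster 4, for the peak as for the RNA. Cluster 4 was highest and cluster 1 lowest, as for PHGDH RNA, but cluster 5 came next after cluster 4 for the peak and only above cluster 1 for the RNA.

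Further upstream, peaks -16259 and -36143 bp from the far end of the interval were 1.68-fold (1.15 to 2.40) and 1.64-fold (1.01 to 2.60) higher in cluster 4. The call at -36143 bp was lost in 6 of 10 alternatives, with a log2 ratio of 0.26 (-0.32 to 0.80) against 0.72 when cells had at least 500 UMIs and peak counts. All 27 PHGDH peaks together were 1.18-fold (1.07 to 1.30) higher in cluster 4, and 232 peaks from 50 kb to 2 Mb on either side were 1.10-fold (1.06 to 1.14) higher. Of 11 other genes with enough UMIs whose intervals lay within 2 Mb, WARS2 was 1.69-fold (1.23 to 2.28) higher in cluster 4, HSD3B1 was 1.56-fold lower and 9 were not called. A gain or loss of DNA copies in this region was not tested.

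Whether cells with an open PHGDH peak held more PHGDH RNA could not be told at this depth. Over all cells, the 236 with a count in the peak 564 bases past the start held PHGDH at 41.1 CPM against 32.2 CPM in the rest, a ratio of 1.27 (0.782 to 1.97). Inside cluster 4 the ratio was 1.67 (0.870 to 2.93), from 13 UMIs in 56 cells, and outside it 0.784 (0.336 to 1.56). For every PHGDH peak with at least 50 such cells the interval held 1, but the intervals were wide; for the peak at chr1:119687275-119688126, with 52 such cells, the ratio was 2.27 (0.975 to 4.51), so differences of 2-fold and more are not left out. Cells with a count in a peak were deeper, with a median of 7071 against 3971 peak counts for this one.

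**Figure D3:**
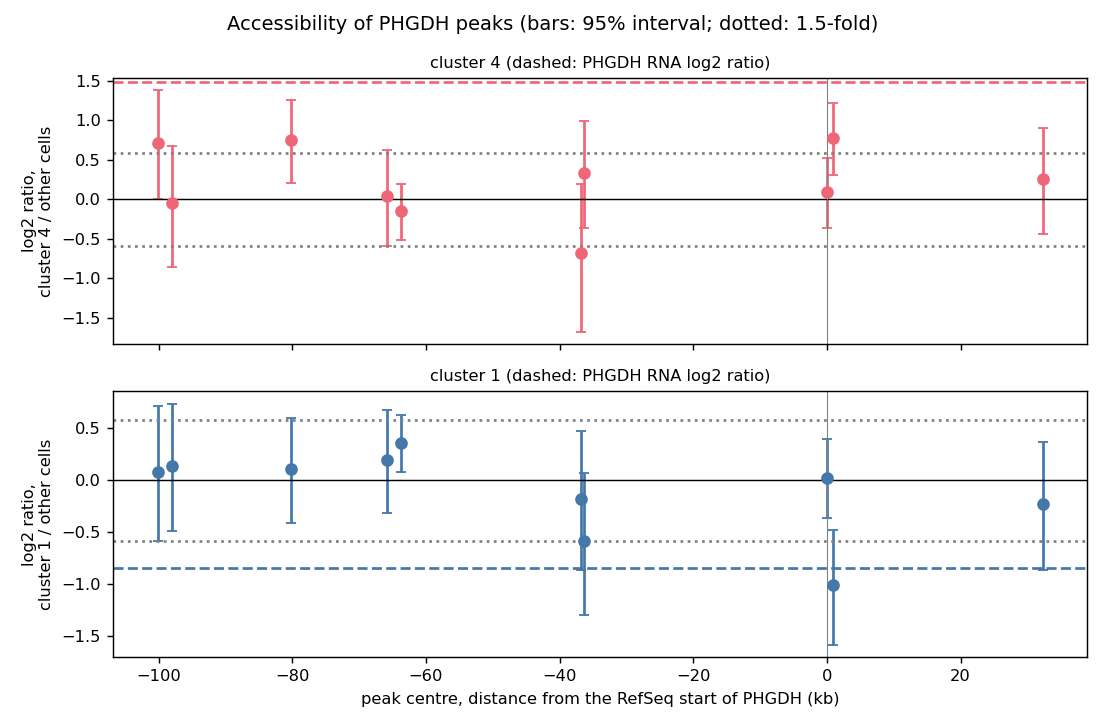
Log2 ratio of counts in each PHGDH peak past the floor (y axis) against the distance of its centre from the RefSeq start (x axis, kb), for cluster 4 (top) and cluster 1 (bottom) against all other cells; bars are 95% intervals, dotted lines mark 1.5-fold and the dashed line is the log2 ratio of PHGDH RNA. The point at the start sits near 0 in both panels, and the one just past it sits above 0 in cluster 4 and below 0 in cluster 1.

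Start sites of the other members were just as even. Of 142 peaks near members, 72 held at least 200 counts, which is 100 events when 2 counts are taken as 1 insertion event. Among 65 ratios of peaks over a start interval, 1 was called, and that peak lies inside the long PHGDH interval at chr1:119674851-119675300, away from the RefSeq start (cluster 3, 1.58-fold, 1.00 to 2.42). That call was lost in 6 of 10 alternatives, with a log2 ratio of 0.35 (-0.23 to 0.90) against 0.66 when cells had at least 500 UMIs and peak counts. Of 295 ratios of peaks outside the start intervals, 14 were called higher and 9 lower. Together 24 of 360 were called (6.67%), beside 11.5% of all peak ratios. Of these, 15 were higher (4.17%) and 9 lower (2.50%), beside 5.14% and 6.37%. Member peaks were left out when the clusters were drawn, whereas 182046 other peaks drew them, which can raise the share over all peaks. The shares are thus not on a like footing, and their difference was not tested.

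Near DDIT3, 5 of 25 ratios of peaks outside the start interval were called, beside 11.5% of all peak ratios. Its RNA was called in none of the 5 clusters. The calls came from only the peaks at -36372 and -41670 bp. Ratios of 1 peak in several clusters depend on each other, because each is taken against all other cells. Peak distances run along the genome from the start interval, whatever the strand. DDIT3 and PSPH lie on the minus strand, so for them negative distances are downstream and positive ones upstream. The peak at -36372 bp, chr12:57483205-57484119, stood at 5.82 and 5.86 CPM of peak counts in clusters 1 and 2, 15.2 in cluster 3 and 16.1 in cluster 5. It was lower by 1.90-fold and 1.87-fold in clusters 1 and 2 and higher by 1.85-fold and 1.79-fold in clusters 3 and 5. The peak at -41670 bp was 2.01-fold (1.39 to 2.87) higher in cluster 3, where DDIT3 RNA had its lowest level, 34.5 CPM. For TRIB3, a peak at -6837 bp was 1.51-fold higher in cluster 3 and 1.84-fold lower in cluster 4, while TRIB3 RNA gave 1.22 (0.879 to 1.68) and 1.00 (0.671 to 1.46). For PSPH, peaks at 22480 and -44240 bp were 1.64-fold and 1.55-fold higher in cluster 4, and 1 at 10515 bp was 1.69-fold higher in cluster 1, where PSPH RNA was highest. Near PSAT1 and ASNS only the start peak passed the floor, so nothing can be said of peaks around them.

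Members were next compared by signs of cell state that do not use them. Cells with at most 10% mitochondrial UMIs were set against the 7321 cells over 10%, with CPM over non-mitochondrial UMIs. PSAT1 stood at 23.8 CPM (17.9 to 31.0) in the former and 15.1 CPM (13.0 to 17.5) in the latter, a ratio of 1.58 (1.14 to 2.15). It was the 1 of 8 members called, beside 2.3% of all genes. PHGDH gave 0.867 (0.671 to 1.11), SHMT2 0.960 (0.795 to 1.15) and DDIT3 1.01 (0.807 to 1.25). The 2217 barcodes left out for over 20% mitochondrial UMIs had PSAT1 at 9.34 CPM against 16.5 CPM in the cells kept, a ratio of 0.567 (0.387 to 0.807), and MTHFD2 at 0.734 (0.594 to 0.901). There too PSAT1 was the only member called, beside 2.53% of genes. PSAT1 was thus lower at each step up in mitochondrial share, with the same cells counted in both comparisons; the call was lost with cells of at least 500 UMIs and peak counts, at a log2 ratio of 0.38 (0.05 to 0.70).

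By cell cycle transcripts, 1 of the 5 members that could be tested was called, and that call did not hold over repeated draws. Cells were thinned to 1000 UMIs each. The 4430 with at least 3 UMIs of G2/M genes, and more of them than of S-phase genes, were set against 565 cells with no cycle transcript. MTHFD2, whose product feeds nucleotide synthesis, stood at 40.4 CPM (34.7 to 46.8) against 23.0 CPM (12.3 to 39.3), a ratio of 1.76 (1.00 to 3.36). It was the member called, beside 8.64% of all genes, and the comparison cells gave 13 MTHFD2 UMIs. In 4 other random draws of the thinning it was called in 0, with ratios from 1.10 to 1.42; the other members were not drawn again. Without thinning of the levels 2 members were called. PHGDH gave 1.07 (0.642 to 1.88), SHMT2 1.13 (0.7504 to 1.76), SESN2 1.10 (0.589 to 2.28) and DDIT3 0.831 (0.560 to 1.28). A further 1046 cells had at least 2 UMIs of S-phase genes, and at least as many as of G2/M genes. In their comparison with the 565, no member reached 100 UMIs. Another 2872 cells held cycle transcripts but met neither of these limits and were not compared. Cells with no cycle transcript were deeper before thinning, with a median of 1871 UMIs against 1446, and had a higher mitochondrial share, 15.3% against 13.3%.

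Whether the serine genes and the ATF4 readouts shared cells was asked in cells thinned to 1000 UMIs. The 652 cells with a UMI of ASNS, CHAC1, TRIB3, DDIT3 or SESN2 held PHGDH at 32.2 CPM, and the other 8261 cells held it at 32.2 CPM, a ratio of 1.00 (0.610 to 1.56). PSAT1 gave 1.27 (0.638 to 2.30), PSPH 0.761 (0.341 to 1.48), SHMT2 1.23 (0.867 to 1.69) and MTHFD2 1.11 (0.697 to 1.68). None of the 5 was called, beside 2.43% of all genes, and their median log2 ratio was 0.15, where that of all genes was -0.0023. With another random draw of the thinning their median was -0.084, so its sign was not stable. In the other direction, 1241 cells with a UMI of a serine gene gave ratios of 1.03 (0.554 to 1.79) for TRIB3, 1.20 (0.887 to 1.59) for DDIT3 and 0.996 (0.643 to 1.49) for SESN2, with 0 of 3 called beside 1.76% of genes. These intervals reach down to 0.341 for PSPH and up to 2.30 for PSAT1, so differences of 2-fold and more are not left out for those genes, and these cells show neither a link nor its absence. In all, 101 cells held UMIs of both sets, where independent draws would give 90.8.

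Between single members, 56 ordered pairs were compared and 2 were called, SHMT2 with DDIT3 in both directions. Over all genes, 2.96% of ratios were called in the same 8 splits. DDIT3 was 1.64-fold (1.08 to 2.41) higher in the 454 cells with a SHMT2 UMI, and SHMT2 was 1.62-fold (1.07 to 2.37) higher in the 351 cells with a DDIT3 UMI. In 4 other random draws of the thinning each was called in 0, with ratios from 1.13 to 1.503 and from 1.18 to 1.498. The median ratio over the 56 pairs was 1.10.

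Of the other pathway genes, 8 of 68 with enough UMIs were called in the cells with a UMI of an ATF4 readout, all of them higher, beside 2.43% of all genes. The ATF4 response genes among them were GDF15, a secreted stress cytokine, at 112.1 against 65.0 CPM (1.72-fold, 1.33 to 2.21), with VEGFA (1.78-fold), ATF3 (1.73-fold) and PPP1R15A (1.70-fold). The others were SLC3A2, the heavy chain of amino acid carriers (1.53-fold), the unfolded protein response genes XBP1 and EDEM1 (1.61-fold and 1.53-fold) and GCN1, an activator of GCN2 (1.59-fold). Most of these depended on which UMIs the thinning kept. Over 4 other random draws GDF15 was called in 4, with ratios from 1.68 to 2.02, XBP1 in 3, SLC3A2, ATF3 and PPP1R15A in 1 each, and VEGFA, GCN1 and EDEM1 in 0.

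GDF15 also led the ranking of all 6573 genes by the lower bound of this ratio. Among the genes ranked next were ZNF680 (2.01-fold), EDA2R (1.93-fold), GABPA (1.86-fold), TRIM58 (1.56-fold), TOB1 (1.73-fold), INHBA (1.58-fold), SLC2A1 (1.92-fold) and HKDC1 (1.64-fold). Unlike GDF15, these genes were not drawn again, so whether their ratios hold over other draws of the thinning was not tested. Some rest on few UMIs in the cells with a readout UMI, 28 for ZNF680 and 30 for EDA2R. As background, GDF15, EDA2R and SESN2 are known p53 targets as well. GDF15 was higher beside SESN2 UMIs (2.02-fold, 1.32 to 2.97) and beside DDIT3 UMIs (1.62-fold, 1.14 to 2.25), and beside TRIB3 UMIs its interval held 1 (1.69, 0.866 to 2.97). Without thinning its ratio was 1.75 (1.53 to 2.00).

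**Figure D4:**
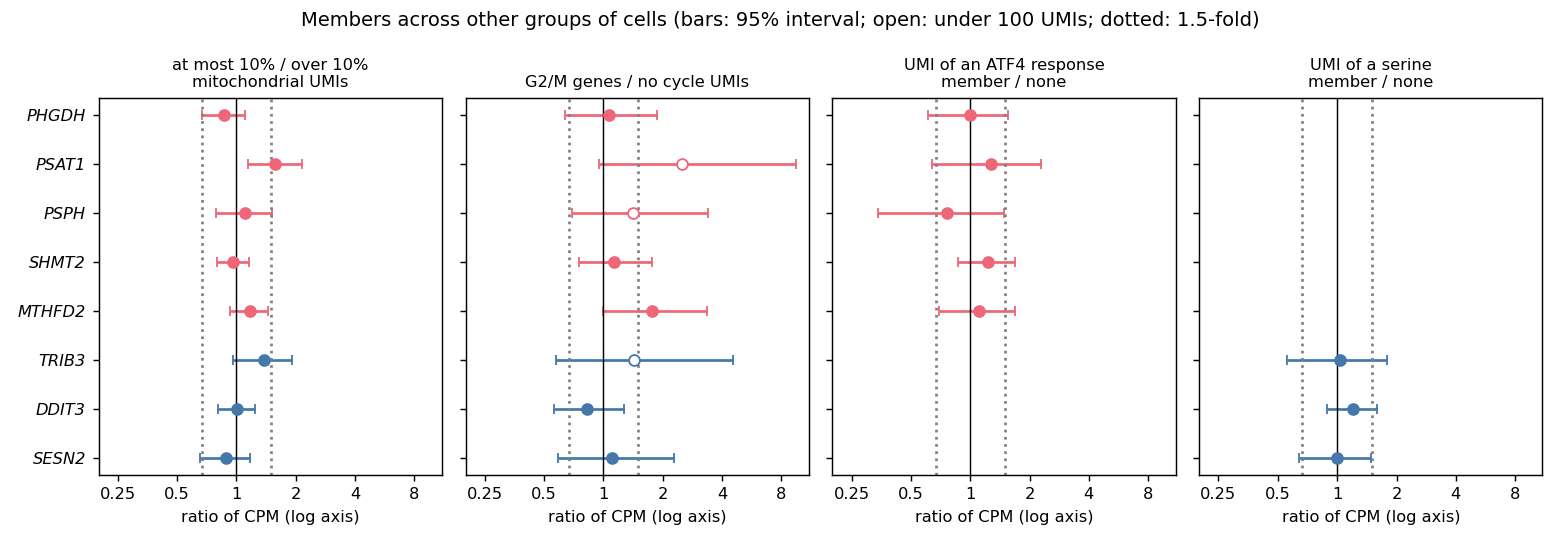
Ratio of CPM (x axes, log scale) with 95% interval for the 8 members with at least 100 UMIs (rows) in 4 comparisons of cells; open points have under 100 UMIs in that comparison, dotted lines mark 1.5-fold, and members that drew a split are left out of it. PSAT1 in the mitochondrial comparison (1.58) and MTHFD2 in the cell cycle comparison (1.76) are the called points, and intervals in the last 2 panels all cross 1.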

How the data were processed

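Expression and accessibility of 1 pool of cells were read from 1 deposited matrix of whole-number counts per feature and barcode, unnormalised and not filtered to cells; Cell Ranger ARC 2.0.0 is named per the file headers. The submitters' processing notes also list the build GRCh38.p10 and, with no role stated, MACS2, ArchR 1.0.3 and Cell Ranger 2.0.0. Peak coordinates are those of the deposited feature list, written from 1. Promoter sequences are RefSeq's (GRCh38.p14, another patch release of the same assembly). Because 87.9% of peak entries were even, 2 counts were taken as 1 event in peak intervals.

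The 10 genes and all pathway lists were chosen with earlier results of these data known. Each group of cells was compared by its summed UMIs. No p-value was computed, because cells are not replicates and all of them form 1 sample. Low-depth barcodes with 5 to 100 UMIs, planned as free RNA, held only 141910 UMIs, and those with 1 to 300 were used instead.

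Chromatin clusters used peaks in at least 20 cells, with TF-IDF weights, 30 components by singular value decomposition without those correlated over 0.75 with depth, cells scaled to unit length, 15 neighbours, Leiden resolution 0.5 and seed 0 (scikit-learn 1.9.0, igraph 0.11.9, leidenalg 0.10.2). The weighting form and the unit-length scaling were settled after 12 partitions had been looked at by cluster size, depth and the levels of 10 genes that are not members, because a first version gathered most cells in 1 cluster. No member's value had been computed for those partitions, but a higher PHGDH level in cells rich in ADGRL3 was already known from earlier work on these data, so this result is not independent of that knowledge. Scrublet (scanpy 1.11.5) marked 0 cells and has not worked here, and doublets remain; an alternative left out the 8% with the highest scores.

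Named genes were every member, at most 4 called genes of each pathway list with the largest ratios, the 5 genes most correlated with PHGDH over clusters, and the 10 with the largest lower bound beside ATF4 readouts among genes with at least 20 CPM. Some genes that this rule takes are not reported here. In simulated counts for cluster 4, 93.0% of 200 genes changed 2-fold were recovered, and 1.27% of unchanged genes were called, of 10311 genes tested. In the smallest, cluster 5, these were 88.0% and 1.70% of 10310. The simulated counts held only the counting error that the intervals assume, with no variation between cells. These shares are therefore not error rates of the real calls. Alternatives were cell filters, clustering settings, expression clusters, scaling by TMM or median-of-ratios factors, the floor, thinning and the splits. The repeat thinning draws, the comparison of PHGDH RNA by peak, the clusters without unit length, the main clusters in cells with low mitochondrial share and the wider free RNA range were chosen after seeing the data.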

Additional observations from a re-analysis of the deposited data

How the results depend on the processing

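Of 40 member ratios over clusters, 5 were called, and the count was 3 of 35 with at least 2000 UMIs and peak counts, 0 of 6 when cells with at most 10% mitochondrial UMIs were clustered anew into 2 clusters, 3 of 15 in those cells with the main clusters kept, 10 of 80 at resolution 1.0, 9 of 56 in clusters drawn from expression and 8 of 40 without unit-length scaling. Under the other 8 alternatives it stayed within 1.5 times. PHGDH was called higher in cluster 4, or the cluster most like it, in 12 of 14 alternatives. It was called lower in cluster 1 in 12 of 14. The exceptions in each case were the 2 restricted to low mitochondrial share, where PHGDH gave 76 UMIs, under the floor. Those 2 thus cannot show that a call was lost. Some kept calls rest on loose matches too. In clusters drawn from expression the Jaccard index was 0.254 for cluster 4 and 0.229 for cluster 1. Without unit-length scaling it was 0.144 for cluster 5, where PSAT1 kept its call. Such matches also say little of those clusters. Changes of scaling factors or floor kept the main clusters and are not separate groupings. PSAT1 and SESN2 in cluster 2 were each called in 10 of 14, and PSAT1 in cluster 5 in 11 of 14. The latter turned to -1.01 (-4.09 to 0.92) in the main clusters' cells with at most 10% mitochondrial UMIs. PSAT1 (54 UMIs) and SESN2 (57) were under the floor in cells of that kind too, so there these tallies go by ratio and interval alone.

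Called member peaks, 24 of 360, numbered 43 of 534 with at least 500 UMIs and peak counts, 15 of 190 with 2000, 0 of 10 at 10% mitochondrial UMIs, 41 of 720 at resolution 1.0 and 57 of 650 with a floor of 20 events. Of the PHGDH peaks, the one 564 bases past the start kept its call in 9 of 10 alternatives in cluster 4 and 8 of 10 in cluster 1, the one at -16259 bp in 8 of 10, and the one at -36143 bp and the one called in cluster 3 in 4 of 10 each.

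By mitochondrial share, 1 member was called, 0 with cells of at least 500 UMIs and 2 with 2000. By cell cycle, 1 was called, 0 with median-of-ratios factors, 2 with a floor of 20, 2 without thinning of the levels and 0 with the looser split; the filters at 2000 UMIs and at 10% mitochondrial UMIs left no member past the floor. The median log2 ratio of the serine genes beside ATF4 readouts, 0.15, was 0.86 with at least 2000 UMIs, where only 1 gene passed, and -0.71 in cells with at least 2 UMIs of the readouts. The reverse median, 0.045, was -0.23 with at least 2 UMIs. With another random draw of the thinning these medians were -0.084 and -0.0041. The cause of these shifts was not tested. No paired analysis was possible because there is 1 pooled sample.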

Other observations

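Several relatives of the members were also under the floor of 100 UMIs, and GLDC, CBS, ALDH1L1, ALDH1L2 and FGF21 gave fewer UMIs than ASNS. Of 17 one-carbon and glycine genes besides the members, 6 had under 100 UMIs over all cells: the glycine cleavage enzyme GLDC had 6, the transsulfuration enzyme CBS 2, the folate dehydrogenases ALDH1L1 and ALDH1L2 5 and 7, AMT 33 and GCAT 95. Among ATF4 response genes, the hormone FGF21 had 0 UMIs, STC2 had 51 and PCK2, the mitochondrial form of PEPCK, had 85. Of the serine carriers, SLC1A4 had 57 UMIs. These genes were under the floor in every comparison among the cells kept. Amino acid transporters stood at a summed 721.2 CPM in cells against 375.5 CPM in barcodes with 1 to 300 UMIs, while the 5 serine members stood at 151.5 against 166.0 CPM and the 5 ATF4 readouts at 76.9 against 86.1 CPM.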
